A study of Mus musculus with 62 samples.

Results

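Metal handling in ethanol-exposed mouse brain was followed through 6 genes: the metallothioneins Mt1, Mt2 and Mt3, the metal-sensing transcription factor Mtf1, and the zinc exporters Slc30a1 and Slc30a3. They were taken by gene symbol from the 56415 genes in the deposited count table, and all 6 of them passed the filter on low counts in each of the 18 comparisons made. The animals were C57BL/6J males aged 8 to 10 weeks. Acute mice were injected once and chronic mice on each of 10 days, into the peritoneum, with saline or with ethanol (2 g/kg). Brains were collected 4 h after the last injection. RNA was sequenced from tissue cores of cortex (CTX), of the dorsal and ventral hippocampus (dHPC and vHPC) and of the dorsal and ventral striatum (DS and VS), which gave 62 libraries in 20 groups from 16 mice, 3 or 4 mice to a group, each mouse contributing 1 to 5 regions. All groups shared the strain, the sex and the route of injection, and the control of every ethanol group was the saline group of the same region and the same number of injections. The 6 genes were chosen by their ethanol against saline values in these libraries. Those values are therefore given as a description, and the calls printed for them below are no independent support.

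Libraries held between 8149628 and 71164766 counts assigned to genes, with medians of 51703961 in CTX and 48892266 in dHPC against 14530177 in vHPC, 13091491 in DS and 14524117 in VS. CTX and dHPC formed 1 library batch, made with a kit that does not keep strand, and the other 3 regions formed a second batch, made with a directional kit. Levels were therefore compared between regions only within a batch. The DS library of chronic saline mouse 2 held 0 counts on chromosomes 7, 8, 9, X, Y and MT, so Mt1, Mt2 and Mt3, which lie on chromosome 8, read 0 there. Its chromosome 6 carried 35955 counts against a median of 522273 in the other DS saline libraries, although Mtf1, Slc30a1 and Slc30a3 had 352, 438 and 184 counts. That library was left out of all values below, which leaves 2 DS chronic saline mice, and values with it are given in the closing section for the genes it holds.

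Metallothioneins are short, cysteine-rich proteins that bind zinc and copper ions. Mt1 and Mt2 are made in most tissues and in brain mainly by astrocytes, are induced by metals, glucocorticoids and oxidative stress, and sit side by side in the genome. Mt3 is largely a brain form and responds little to the same inducers. Free zinc is sensed by MTF-1, the product of Mtf1, which binds metal response elements (MREs) in the promoters of Mt1, Mt2 and Slc30a1. Slc30a1 encodes ZnT1, which carries zinc out across the plasma membrane, and Slc30a3 encodes ZnT3, which loads zinc into the synaptic vesicles of a subset of glutamatergic neurons in cortex and hippocampus.

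The 3 metallothionein genes lie within 1 stretch of chromosome 8 on the plus strand. In the GRCm39 coordinates of the deposited annotation, Mt3 (ENSMUSG00000031760) spans chr8:94879235-94880774, Mt2 (ENSMUSG00000031762) chr8:94899292-94900192 and Mt1 (ENSMUSG00000031765) chr8:94905710-94906955. Mtf1 (ENSMUSG00000028890) lies at chr4:124695897-124743172 on the plus strand, Slc30a1 (ENSMUSG00000037434) at chr1:191638879-191645359 on the plus strand and Slc30a3 (ENSMUSG00000029151) at chr5:31243450-31265581 on the minus strand. The promoter windows of the 3 metallothioneins are shown because Mt1 and Mt2 moved together across these libraries and Mt3 less so. Each runs from 250 bases before to 50 bases from the annotated start of isoform 201, in GRCm39 on the plus strand, at chr8:94905460-94905759 for Mt1, chr8:94899042-94899341 for Mt2 and chr8:94878985-94879284 for Mt3. Capitals mark matches to the MRE core, searched on both strands as TGCACNC or TGCGCNC, so that a match on the other strand reads from GNG to GCA.
Mt1: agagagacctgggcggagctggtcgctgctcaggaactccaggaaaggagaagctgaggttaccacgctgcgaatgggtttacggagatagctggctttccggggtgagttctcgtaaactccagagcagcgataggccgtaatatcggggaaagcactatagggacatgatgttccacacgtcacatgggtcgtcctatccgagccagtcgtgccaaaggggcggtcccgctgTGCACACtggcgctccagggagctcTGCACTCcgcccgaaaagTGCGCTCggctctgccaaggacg
Mt2: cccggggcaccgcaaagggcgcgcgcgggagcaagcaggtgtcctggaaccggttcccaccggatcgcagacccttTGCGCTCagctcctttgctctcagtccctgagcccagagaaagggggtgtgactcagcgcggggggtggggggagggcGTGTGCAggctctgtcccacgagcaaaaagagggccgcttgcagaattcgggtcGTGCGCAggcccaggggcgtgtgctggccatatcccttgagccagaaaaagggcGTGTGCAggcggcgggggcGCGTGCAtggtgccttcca
Mt3: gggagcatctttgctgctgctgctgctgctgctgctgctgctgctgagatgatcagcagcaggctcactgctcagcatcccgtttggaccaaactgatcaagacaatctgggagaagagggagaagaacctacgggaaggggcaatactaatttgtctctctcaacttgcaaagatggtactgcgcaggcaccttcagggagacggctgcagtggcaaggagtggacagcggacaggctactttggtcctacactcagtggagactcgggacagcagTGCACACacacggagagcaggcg

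The Mt2 window held 5 MRE matches, the Mt1 window 3 and the Mt3 window 1. By comparison, 28.3% of 21636 protein-coding promoter windows of the same length held at least 1 match, 2.35% held at least 3 and 0.157% held at least 5. The matches began at −16, 10 and 28 relative to the start in Mt1, at −174, −96, −42, 13 and 32 in Mt2, and at 28 in Mt3. A TATAAA lay 128 bases downstream of the isoform 201 start in Mt1, 89 in Mt2 and 106 in Mt3. Counted from 220 bases before that TATAAA to 30 bases from its first base, the windows held 5 matches in Mt1, 5 in Mt2 and 3 in Mt3. At least 3 matches were found in 1.76% and at least 5 in 0.0971% of windows of that length around annotated gene starts. Those ran from 220 bases before to 30 bases from the start and were not placed by a TATAAA. Among the other 3 genes the 300-base window held 1 match in Slc30a1 and 0 in Mtf1 and Slc30a3. An antioxidant response element core, searched as TGACNNNGC on both strands, was found in the 300-base windows of Mt2, Slc30a1 and Slc30a3, 1 each, and in 12.6% of all promoters. In the windows set by TATAAA, Mt1 and Mt2 held 1 each and Mt3 held 0. The palindromic response element of the glucocorticoid receptor, with 3 free bases between its arms, was in none of the 6 windows and in 0.00462% of promoters. So exact a match is too rare for its absence here to say anything of glucocorticoid response. A match is a run of letters and says nothing of whether a factor was bound in these tissues.

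Per kilobase of isoform 201, Mt3 was the most abundant of the 6 genes in every region of saline mice, followed by Mt1 and then Mt2. In CPM, the counts scaled to library size, per kilobase over 6 saline mice, from the counts of isoform 201, Mt3 stood at 312 ± 30.1 (SD) in CTX, 460.8 ± 53.7 in dHPC, 392.4 ± 29.5 in vHPC and 285.2 ± 21.2 in VS, and at 268.9 ± 18.2 in DS (n = 5). Mt1 stood at 178.7 ± 21.7, 281.0 ± 38.6, 257.6 ± 26.5 and 241.1 ± 25.4 in CTX, dHPC, vHPC and VS, and at 221.5 ± 20.4 in DS. Mt2 followed at 99.2 ± 10.3, 189.6 ± 26.7, 173.3 ± 25.8 and 135.0 ± 14.8, and at 143.7 ± 8.13 in DS. The libraries of neighbouring genes in this order did not overlap, except Mt3 and Mt1 in VS. The exporters and the sensor lay far lower: Slc30a3 came next in CTX (52.4 ± 5.07), dHPC (27.8 ± 3.79) and vHPC (22.0 ± 9.39), ahead of Slc30a1 and Mtf1, whose means ran from 5.65 to 7.29 and from 4.55 to 5.85 over the 5 regions. In DS the order was Slc30a1, Mtf1 and Slc30a3, and the Mtf1 and Slc30a3 libraries overlapped. In VS every Slc30a1 library lay above every Mtf1 library, and Slc30a3 overlapped both. Slc30a3 stood at 4.15 ± 1.56 CPM per kilobase in DS and 6.22 ± 4.94 in VS. Reads of CTX and dHPC carry no strand. There a gene on the other strand that overlaps Mt2, Gm45774 (chr8:94892504-94899999), had counts, summed over the libraries of a region, equal to 86.7% and 87.4% of those of Mt2. The shares were 0.363%, 0.451% and 0.369% in vHPC, DS and VS. In CTX and dHPC the reads of that pair cannot be told apart, so the Mt2 levels of those regions are less certain. The same holds to a lesser degree for Slc30a1 and its overlapping gene on the other strand, 1700034H15Rik. The summed counts of 1700034H15Rik were 24.7% and 17.1% of those of Slc30a1 in CTX and dHPC. They were 7.43%, 8.58% and 9.39% in vHPC, DS and VS. Mtf1 is overlapped at its end by 1110065P20Rik (chr4:124742873-124744989, minus strand). The summed counts of 1110065P20Rik were 62.0% and 59.4% of those of Mtf1 in CTX and dHPC. They were 71.4%, 53.3% and 61.9% in the stranded libraries of vHPC, DS and VS.

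**Figure D1:**
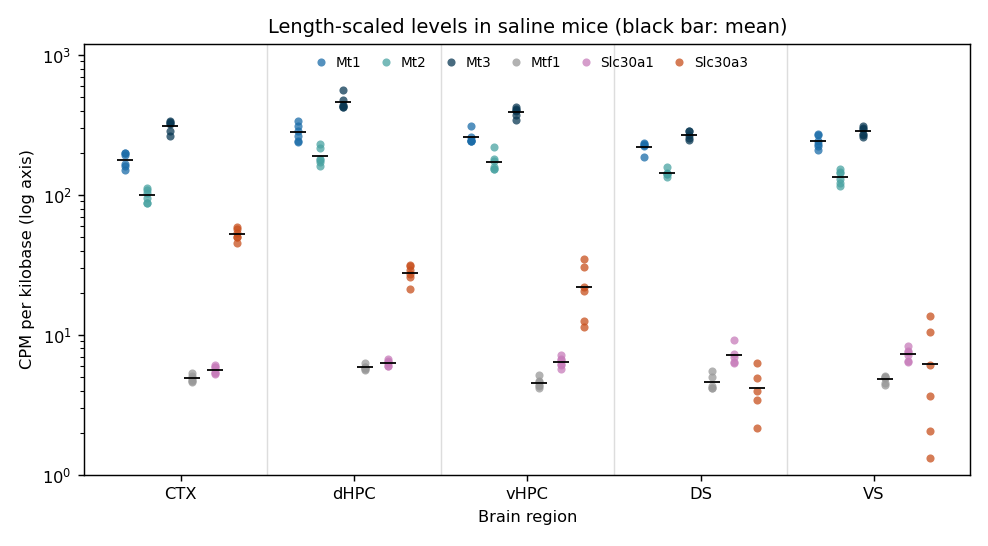
Level of the 6 genes in saline mice, in CPM per kilobase of isoform 201 on a log axis, by region, with points for libraries and bars for the mean (6 mice a region, 5 in DS). Mt3 is highest and Mt1 lies above Mt2 in each region, and Slc30a3 stands at 52.4 in CTX and 27.8 in dHPC in one batch and at 22.0, 4.15 and 6.22 in vHPC, DS and VS in the other.

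After 1 ethanol injection Mt2 was higher than after saline in all 5 regions, and in each of them every ethanol library lay above every saline library. The log2 fold change (± SE) was 0.51 ± 0.09, 0.53 ± 0.11, 0.65 ± 0.10, 0.35 ± 0.08 and 0.56 ± 0.15 for CTX, dHPC, vHPC, DS and VS, taken in that order. In CTX the saline mice stood at 53.0, 55.8 and 57.0 CPM and the ethanol mice at 64.6, 87.3 and 83.9 CPM. In dHPC the values were 83.2, 110.4 and 92.0 CPM with saline and 119.9, 129.9, 156 and 145 CPM with ethanol. The ethanol mouse nearest to the saline range was mouse 2 in both of these regions. In vHPC saline gave 90.1, 92.1 and 80.6 CPM and ethanol 124, 138 and 151 CPM. In DS saline gave 80.4, 72.5 and 72.1 CPM and ethanol 86.4, 102 and 97.9 CPM. In VS saline gave 78.6, 73.2 and 66.6 CPM and ethanol 86.3, 104 and 131 CPM. The fold change was largest in vHPC, where the means were 87.6 ± 6.17 and 137.9 ± 13.3 CPM (n = 3 and 3), and the spread among ethanol mice was widest in VS, at 106.9 ± 22.3 CPM. In bulk tissue a change in the number of cells of a type and a change in RNA per cell cannot be told apart.

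Mt1 was higher after 1 ethanol injection by log2 fold changes of 0.21 ± 0.05, 0.48 ± 0.10, 0.57 ± 0.10, 0.22 ± 0.07 and 0.36 ± 0.13, with the regions in the same order, and the groups overlapped only in VS. In CTX saline mice stood at 107, 110.0 and 109.9 CPM and ethanol mice at 119, 132 and 126 CPM. In dHPC saline mice stood at 135, 172 and 132 CPM and ethanol mice at 176, 210.4, 212 and 219 CPM. In both regions the lowest ethanol mouse was above the highest saline mouse. In vHPC the values were 136, 143 and 135 CPM against 178, 223 and 213 CPM. In DS they were 126, 129.9 and 129 CPM against 135, 155 and 157 CPM. In VS ethanol mouse 2, at 147 CPM, lay under the saline mouse at 149 CPM, while the other VS values were 133 and 127 CPM with saline and 182 and 196 CPM with ethanol.

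**Figure D2:**
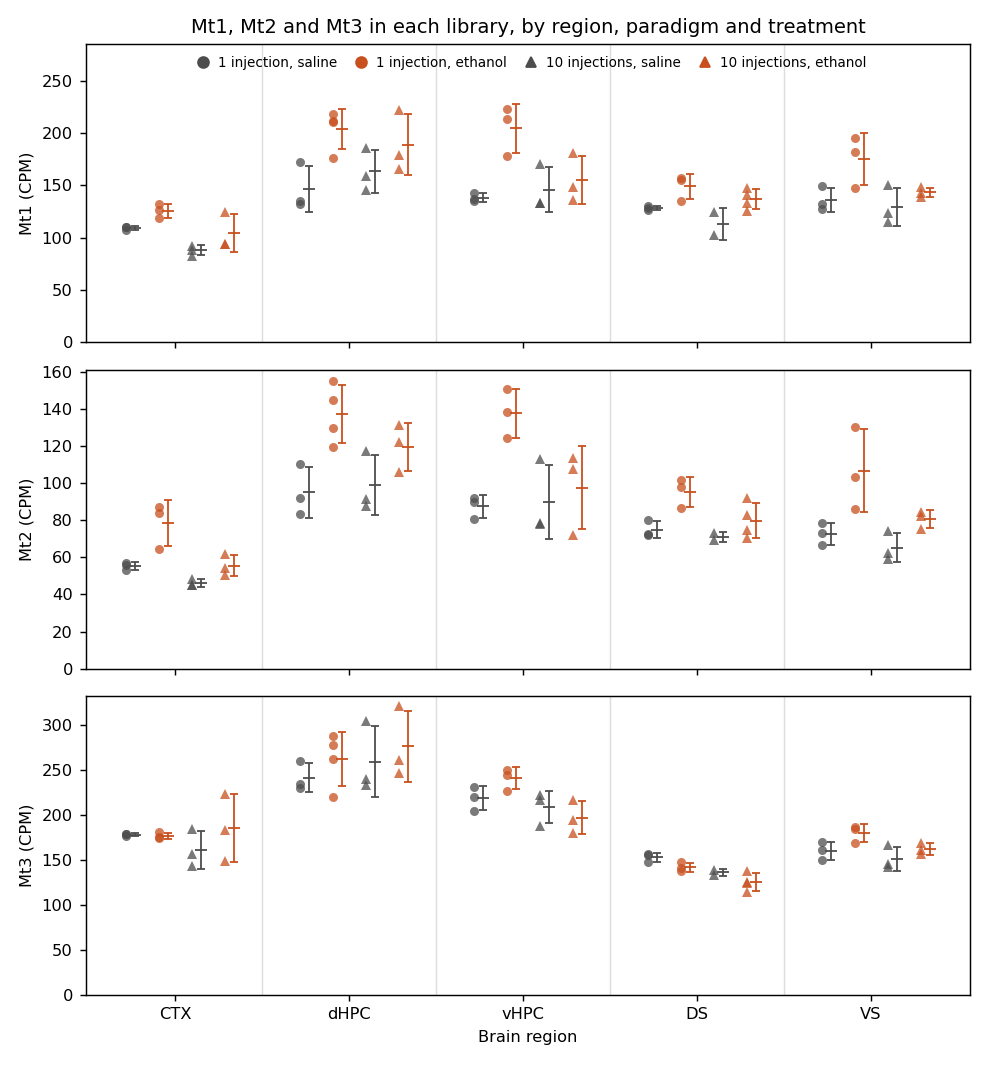
Mt1, Mt2 and Mt3 levels in CPM for every library, by region, paradigm and treatment, with points for mice and bars for the mean and SD (3 or 4 mice a group, 2 in DS chronic saline). Acute ethanol mice lie above acute saline mice for Mt2 in all 5 regions, and Mt3 groups overlap throughout.

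After 10 ethanol injections the Mt2 fold change was smaller in each region than after 1, and the groups overlapped in 3 regions. On the log2 scale Mt2 was higher by 0.28 ± 0.09, 0.28 ± 0.12, 0.12 ± 0.19, 0.16 ± 0.12 and 0.31 ± 0.11 for CTX, dHPC, vHPC, DS and VS, and the groups were apart in CTX and VS only. In CTX saline mice stood at 48.5, 45.0 and 45.2 CPM and ethanol mice at 54.4, 50.8 and 61.6 CPM. In VS saline mice stood at 62.2, 59.4 and 74.4 CPM and ethanol mice at 82.6, 84.8 and 75.3 CPM. In the other regions at least 1 saline mouse lay inside the ethanol range. In dHPC saline gave 117, 87.7 and 91.8 CPM and ethanol 122, 106 and 131 CPM. In vHPC saline gave 112.9, 78.4 and 78.0 CPM and ethanol 108, 71.9 and 113.5 CPM. The high saline value of both hippocampal sets came from mouse 2, the animal whose DS library was incomplete. Leaving out 1 library at a time moved the log2 fold change of Mt2 between 0.19 (without saline mouse 5) and 0.41 (without saline mouse 2) in dHPC. In vHPC it moved between −0.00027 (without ethanol mouse 6) and 0.32 (without saline mouse 2). In DS the 2 saline mice stood at 73.2 and 69.4 CPM and the 4 ethanol mice at 91.9, 70.4, 82.7 and 74.7 CPM.

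Mt1 after 10 ethanol injections was higher by log2 fold changes of 0.26 ± 0.12, 0.21 ± 0.12, 0.09 ± 0.13, 0.27 ± 0.11 and 0.14 ± 0.11 in the same regions, with the groups apart in CTX and DS. In CTX saline gave 88.6, 92.1 and 82.9 CPM and ethanol 93.5, 93.8 and 125 CPM, and without ethanol mouse 6 the log2 fold change was 0.10. In DS saline gave 124 and 102.5 CPM and ethanol 148, 133, 140.5 and 126 CPM, and against a single saline mouse, 6 or 3, the log2 fold change was 0.42 or 0.12. The separation in DS thus rested on 2 saline mice, and that in CTX was narrow for 2 of 3 ethanol mice. In dHPC saline gave 185, 145 and 159 CPM and ethanol 179, 166 and 222 CPM, and without ethanol mouse 6 the log2 fold change was 0.083. In vHPC saline gave 171, 133 and 134 CPM and ethanol 148, 136 and 181 CPM, and without ethanol mouse 6 the log2 fold change was −0.039. In VS saline gave 115, 124 and 149.9 CPM and ethanol 139, 148 and 143 CPM. The difference between acute and chronic fold changes was not tested because those contrasts chose the genes.

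Mt3 did not separate in any region or paradigm. Its log2 fold change lay between −0.12 and 0.21 and its ethanol and saline libraries overlapped in all 10 comparisons. In CTX the acute saline mice stood at 179, 179 and 176 CPM and the ethanol mice at 175, 181 and 176 CPM, a log2 fold change of −0.01 ± 0.05. In dHPC acute saline gave 235, 260.4 and 230.1 CPM and ethanol 219.7, 288, 263 and 278 CPM. In DS acute saline gave 148, 156 and 156 CPM and ethanol 141, 148 and 137 CPM, the single acute set in which the ethanol mean was lower by more than 0.1 log2 units, at −0.11.

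Of the 6 genes, 2 passed a false discovery rate (FDR) of 0.1 in the all-gene edgeR fit in acute CTX (Mt1 and Mt2, both higher) and 2 in acute DS (Mt2 higher, Slc30a3 lower), where 1.99% and 5.15% of all tested genes passed. Of all genes, 0.818% passed as higher and 1.17% as lower in CTX, and 2.05% and 3.1% in DS. The acute CTX calls of Mt1 and Mt2 and the acute DS call of Mt2 were lost with all groups of the region in 1 fit. Further losses are listed in the closing section. None of the 6 passed in the other 8 comparisons, where 0.042% (dHPC acute), 0.0399% (VS acute), 0.0555% (vHPC chronic) and 0% (the remaining 5) of all genes did. In those 8 the unadjusted edgeR p was under 0.05 for 3 of the 6 genes in each acute set (dHPC, vHPC and VS), for 0 in chronic vHPC and for 2 in each of the other 4 chronic sets. DESeq2 called more: Mt1 and Mt2 in acute CTX and dHPC, Mt1, Mt2 and Slc30a3 in acute vHPC and DS, Mt2 and Slc30a3 in acute VS, Slc30a3 in chronic VS and none in the other 4 chronic sets. Its background was 5.21%, 1.6%, 4.46%, 8.14% and 0.943% of genes in acute CTX, dHPC, vHPC, DS and VS and 0.835%, 1.25%, 1.17%, 0.878% and 2.46% in the chronic sets in that order. Ethanol libraries all above saline libraries were found for 8.85%, 4.01%, 9.03%, 10.6% and 5.9% of all genes in acute CTX, dHPC, vHPC, DS and VS. For chronic exposure the shares were 8.14%, 6.58%, 7.33%, 8.89% and 8.4%. These counts restate the values by which the genes were chosen, and the shares are given only as their background.

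**Figure D3:**
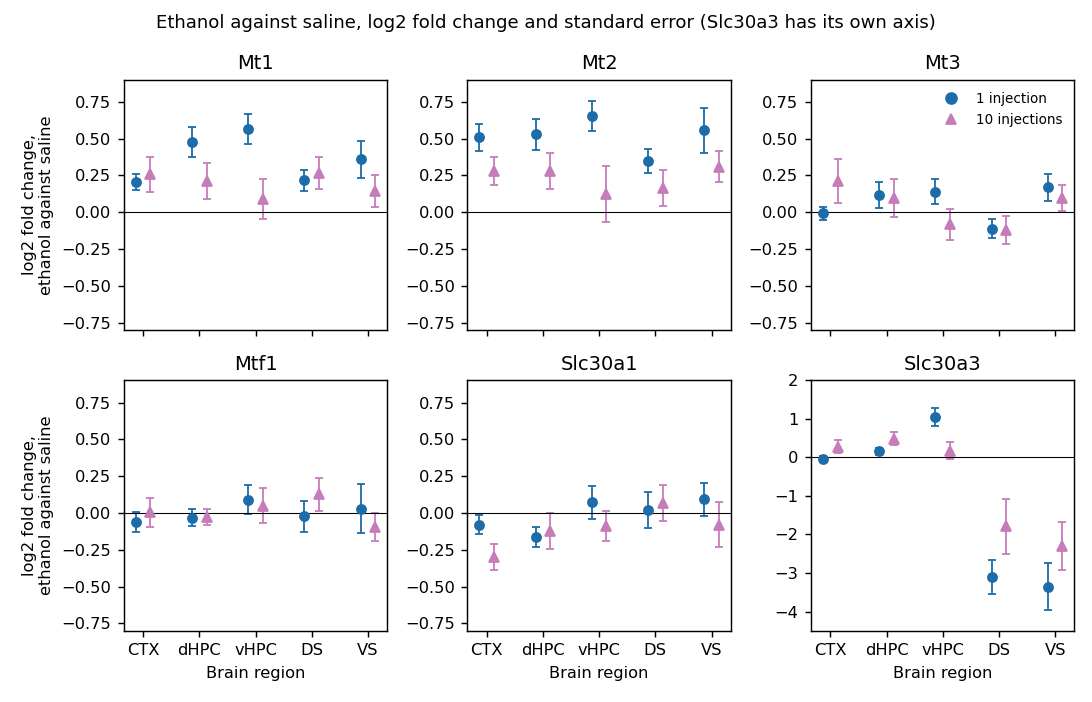
Log2 fold change of ethanol over saline for the 6 genes in the 5 regions and both paradigms, with bars for the SE of the edgeR fit. With all libraries Mt1 and Mt2 lie above 0 in the 10 comparisons (in chronic vHPC both lie at or just under 0 without ethanol mouse 6), Mt3, Mtf1 and Slc30a1 lie between −0.30 and 0.21, and Slc30a3 reaches 1.06 in vHPC and −3.35 in VS after 1 injection.

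The ratio of Mt1 to Mt2 showed how far the pair kept step. In acute CTX the ratio of CPM values was 1.97 ± 0.05 with saline and 1.62 ± 0.19 with ethanol (SD, n = 3 and 3), the widest gap among the 10 comparisons. It was also lower on average with ethanol in the other 4 acute sets, at 1.49 against 1.54 (dHPC), 1.48 against 1.58 (vHPC), 1.57 against 1.72 (DS) and 1.65 against 1.87 (VS). After 10 injections it was 1.86 against 1.90 in CTX, 1.57 against 1.66 in dHPC, 1.62 against 1.64 in vHPC and 1.77 against 1.98 in VS, and only in DS was it higher with ethanol, at 1.72 against 1.59. In every acute region the Mt2 fold change was thus larger than that of Mt1.

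Averaged over the regions of a mouse, after subtraction of each region's mean on the log2 scale, Mt2 separated the acute animals by treatment. The 4 acute ethanol mice stood at 0.12, 0.25, 0.47 and 0.50 and the 4 acute saline mice between −0.29 and −0.09, with 1 to 5 regions each. Among chronic mice, 3 saline animals stood between −0.38 and −0.26 and mouse 2, seen in 2 hippocampal regions only, at 0.11. The chronic ethanol mice lay between, at −0.21, −0.02, 0.06 and 0.07. Regions of a mouse share that mouse, so these values describe 16 animals and not 61 independent libraries.

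**Figure D4:**
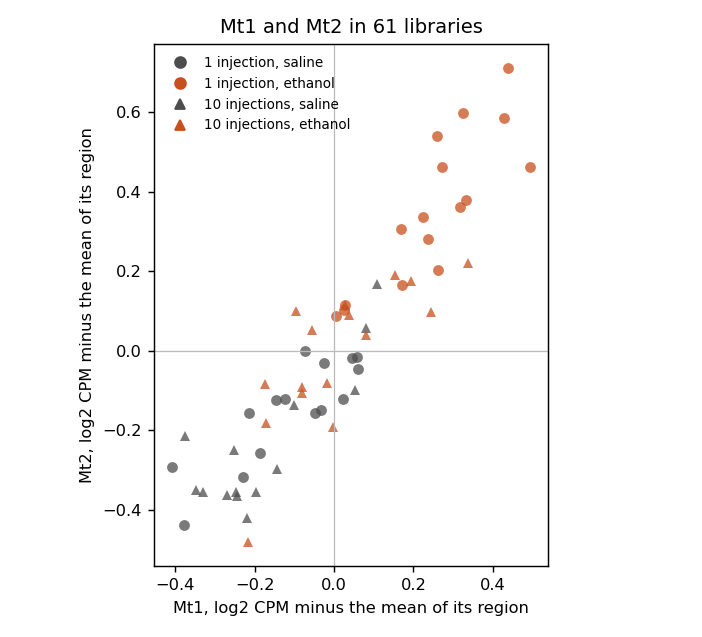
Mt1 against Mt2 in 61 libraries, as log2 CPM after subtraction of the region mean, by treatment and paradigm. Points fall along a line, with Pearson r of 0.92, and acute ethanol libraries lie towards its upper end.

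Across these 61 libraries, after the same centring, Mt1 and Mt2 had a Pearson r of 0.92, and of 0.81 after centring on each group of region, paradigm and treatment. Mt3 followed Mt1 less closely, at 0.62 and 0.71, and Mt2 at 0.52 and 0.50. Mtf1, Slc30a1 and Slc30a3 bore little relation to Mt1, at 0.10, 0.04 and −0.13 in the region-centred values. The libraries share mice, batches and depth, so these values are descriptions. Of 19344 genes compared, those most like Mt1 after Mt2 were Fam107a (0.79), Rhob, Mfsd2a and Fkbp5 (each 0.77), and those most like Mt2 after Mt1 were Fkbp5 (0.83), Fam107a (0.82), Smim3 (0.81) and Sdc4 (0.79). Fkbp5 encodes a co-chaperone of the glucocorticoid receptor. With group centring Fkbp5 and Fam107a were not among the 5 genes nearest to either, which were Mt2, Mt3, Cst3 (0.68), Pik3ip1 (0.66) and Rps18 (0.63) for Mt1, and Mt1, Pik3ip1 (0.66), Smim3 (0.60), Sdc4 (0.59) and Thrsp (0.59) for Mt2. Mt3 had other neighbours, namely Gatd3a (0.72), Uqcrq (0.71), Pmm1 (0.71), Grcc10 (0.70) and Zfp622 (0.70), of which Uqcrq encodes a subunit of respiratory complex III. With group centring, Mt3 was nearest to the respiratory chain genes Ndufa13 (0.74) and Cox5b (0.74).

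Values of 2 other gene lists stand beside the metallothionein results. Over a list of 14 glucocorticoid response genes the median log2 fold change was 0.20, 0.41, 0.30, 0.41 and 0.42 in acute CTX, dHPC, vHPC, DS and VS, where the median of all genes lay within 0.007 of 0, and of 0.02 to 0.15 in the chronic sets. Calls of this list are given for acute DS and CTX only. In acute dHPC, vHPC and VS 0.042%, 0% and 0.0399% of all genes passed in edgeR. In acute DS 7 of the 14 rose and 1 fell at FDR below 0.1, against a background of 5.15% called, with Fkbp5 at 0.80 ± 0.09 (adjusted p = 0.000253, edgeR) and Plin4, which encodes a lipid droplet protein, at 1.10. In acute CTX 4 rose, with Fkbp5 at 0.93 ± 0.13 (adjusted p = 0.0103, edgeR), and 1 fell, the MAP kinase phosphatase gene Dusp1, at −0.78, against 1.99% called. Their part in the metallothionein values was not tested. The 10 astrocyte markers, led by Slc1a2, summed to nearly the same level in acute saline and ethanol mice, at 3708 and 3523 CPM (CTX), 3715 and 3668 (dHPC), 4426 and 4633 (vHPC), 2873 and 2846 (DS) and 2847 and 2790 CPM (VS). Per 1000 CPM of these markers Mt2 stood at 14.9 ± 0.59 with saline and 22.4 ± 3.94 with ethanol in CTX, and its means were 25.7 and 37.9 (dHPC), 19.8 and 29.9 (vHPC), 26.1 and 33.5 (DS) and 25.6 and 38.6 (VS). After 10 injections the sums with saline and ethanol differed more in some regions, at 3538 ± 299 and 2980 ± 298 CPM (CTX), 3457 and 3730 (dHPC), 4449 ± 280.2 and 3880 ± 506 (vHPC), 2700 and 2808 (DS) and 2899 ± 112.3 and 2619 ± 65.7 CPM (VS), so that they were lower with ethanol in CTX, vHPC and VS. Per 1000 CPM of the markers Mt2 then stood at 13.1 and 18.7 (CTX), 28.8 and 32.1 (dHPC), 20.1 and 24.9 (vHPC), 26.4 and 28.4 (DS) and 22.6 and 30.9 (VS). None of the 10 markers passed FDR below 0.1 in edgeR in a chronic comparison, where 0.0555% of all genes passed in vHPC and 0% in the other regions. In each comparison 2 or 3 of the markers had an unadjusted p under 0.05, and their part in the chronic metallothionein values was not tested.

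Mtf1, the zinc sensor, stayed within a narrow band. All its libraries lay between 27.5 and 48.3 CPM, and its ethanol log2 fold changes between −0.10 and 0.13. The groups overlapped in 9 of 10 comparisons. In chronic DS the 2 saline mice stood at 31.9 and 33.2 CPM and the 4 ethanol mice at 34.4, 34.3, 33.6 and 40.3 CPM, so that the lowest ethanol mouse lay just above the higher saline mouse, and the log2 fold change was 0.13 ± 0.11. The genes most like Mtf1 across the 61 region-centred libraries reached lower correlations than those of the metallothioneins, with Map3k13 and Icmt at 0.62, Slc35e1 at 0.60, Stard3 at 0.59 and Sec61a1 at 0.58.

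Slc30a1, the plasma membrane exporter and itself an MTF-1 target, did not move with Mt1 and Mt2. Its libraries lay between 22.3 and 47.9 CPM and its ethanol log2 fold changes between −0.30 and 0.09. The 2 sets in which its groups did not overlap were both lower with ethanol. In chronic CTX saline mice stood at 30.7, 27.7 and 28.0 CPM and ethanol mice at 24.5, 22.3 and 22.9 CPM, a log2 fold change of −0.30 ± 0.09. In chronic vHPC saline mice stood at 32.5, 32.2 and 35.5 CPM and ethanol mice at 31.1, 31.9 and 31.0 CPM, which is −0.09 ± 0.10. Ethanol libraries all below saline libraries were found for 9.83% of all genes in chronic CTX and 7.46% in chronic vHPC. The genes nearest to Slc30a1 were Oacyl and Sp1, each at r = 0.58, and Ddx6 and Insr (each 0.56) and Zbtb10 (0.55), and no metallothionein was among them.

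Slc30a3, the exporter of glutamatergic synaptic vesicles, had the widest differences of the 6 genes, and in opposite directions in hippocampus and striatum. In acute DS the saline mice held 10.5, 7.21 and 13.1 CPM (106, 100 and 184 counts) and the ethanol mice 0.63, 2.58 and 0.65 CPM (8, 40 and 30 counts), a log2 fold change of −3.10 ± 0.44. With 1 library left out it ranged from −3.98 (without ethanol mouse 4) to −2.63. In acute VS the saline mice held 4.40, 28.6 and 21.9 CPM (45, 314 and 364 counts) and the ethanol mice 1.90, 0.72 and 2.55 CPM (33, 8 and 41 counts), a log2 fold change of −3.35 ± 0.62. The groups were apart in both regions, as in 10.8% of all genes with ethanol below saline in DS and 6.43% in VS, and VS saline mouse 2 stood closer to the ethanol mice than to the other saline mice. In chronic DS saline gave 8.24 and 4.48 CPM and ethanol 0.87, 4.53, 1.84 and 0.34 CPM (−1.79 ± 0.71). In chronic VS saline gave 12.7, 2.77 and 7.85 CPM and ethanol 0.87, 2.89 and 0.81 CPM (−2.30 ± 0.62). Both chronic striatal sets overlapped by 1 ethanol mouse, mouse 4 in each.

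The striatum holds almost no neurons of this glutamatergic type, and markers of such pallial excitatory neurons moved with Slc30a3 in these cores. The 9 markers summed to 411, 455 and 542 CPM in acute DS saline mice and to 45.8, 119 and 36.4 CPM in the ethanol mice. In acute VS they summed to 369.5, 685 and 890.1 CPM with saline and to 165, 57.0 and 77.7 CPM with ethanol. VS saline mouse 2 was the lowest of its group by these sums and by Slc30a3, and DS ethanol mouse 4 the highest of its group by both. In chronic DS the sums were 617 and 468 CPM against 64.9, 186, 88.9 and 37.8 CPM, and in chronic VS they were 770.2, 106 and 478 CPM against 50.9, 108 and 44.7 CPM. Slc17a7, the vesicular glutamate transporter of cortical neurons, was the most abundant marker in every striatal saline library, Cux2 in 5 of the 13 striatal ethanol libraries, and at most 1 of the 9 was at 0 in any library. At FDR below 0.1, 8 of the 9 fell in acute DS (median log2 fold change −3.20, background 3.1% lower) and 1 of 9 in acute VS (median −2.76, background 0.0399%). None of the 9 passed in chronic DS (median −2.33) or chronic VS (median −3.16) by edgeR, where 0% of all genes did in either region. In these sets 6 and 8 of the markers had an unadjusted p under 0.05.

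Per 1000 CPM of the pallial markers, Slc30a3 was 21.9 ± 5.28 with saline and 17.7 ± 3.97 with ethanol in acute DS, and 26.1 ± 15.01 and 18.99 ± 12.0 in acute VS (SD, n = 3 and 3). It was 11.5 ± 2.67 and 16.9 ± 6.99 in chronic DS (n = 2 and 4) and 19.7 ± 5.68 and 20.6 ± 5.30 in chronic VS (n = 3 and 3). On that scale saline and ethanol differed by less than the larger of the 2 SDs in all 4 striatal sets. Across the 61 region-centred libraries the genes most like Slc30a3 were Olfm1 (r = 0.91) and Rtn4r, Cck, Tbr1 and Slc17a7 (each 0.90), and the last 2 of these belong to the 9 markers.

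In the hippocampus Slc30a3 was higher with ethanol or overlapped. In acute vHPC saline mice stood at 26.4, 43.1 and 24.3 CPM and ethanol mice at 66.3, 51.5 and 78.1 CPM, a log2 fold change of 1.06 ± 0.23 with the groups apart. The pallial sum there was much the same, at 2084 ± 341 and 2118 ± 199 CPM, and Slc30a3 per 1000 CPM of it was 15.4 ± 5.71 and 30.6 ± 3.90. Markers of dentate granule neurons, whose mossy fibres are rich in vesicular zinc, did differ: the 6 markers summed to 331, 281 and 127 CPM with saline and 518, 446 and 612 CPM with ethanol. All 6 of these markers were higher with ethanol, with a median log2 fold change of 1.11. None passed FDR below 0.1 in edgeR, where 0% of all genes did, and 5 had an unadjusted p under 0.05. Prox1 was the most abundant of them in 4 of the 6 libraries and none was at 0. In chronic vHPC Slc30a3 overlapped, at 72.8, 63.8 and 46.3 CPM against 47.6, 66.8 and 92.1 CPM (0.18 ± 0.23, and −0.090 without ethanol mouse 6).

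In acute dHPC Slc30a3 values overlapped, at 57.2, 60.7 and 54.6 CPM against 71.0, 61.9, 52.9 and 71.5 CPM (0.16 ± 0.10). After 10 injections the dHPC groups were apart, at 66.5, 44.8 and 65.0 CPM with saline and 90.7, 67.6 and 88.6 CPM with ethanol (0.49 ± 0.16), and the dentate granule sum was 430.5 CPM with saline and 621 CPM with ethanol. In CTX the Slc30a3 groups overlapped in both paradigms, at 104, 119 and 112.8 CPM against 103, 111 and 114 CPM after 1 injection (−0.04 ± 0.06) and 124, 105 and 95.1 CPM against 104, 118 and 169 CPM after 10 (0.28 ± 0.17). The part of these marker differences in the Slc30a3 values was not tested.

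**Figure D5:**
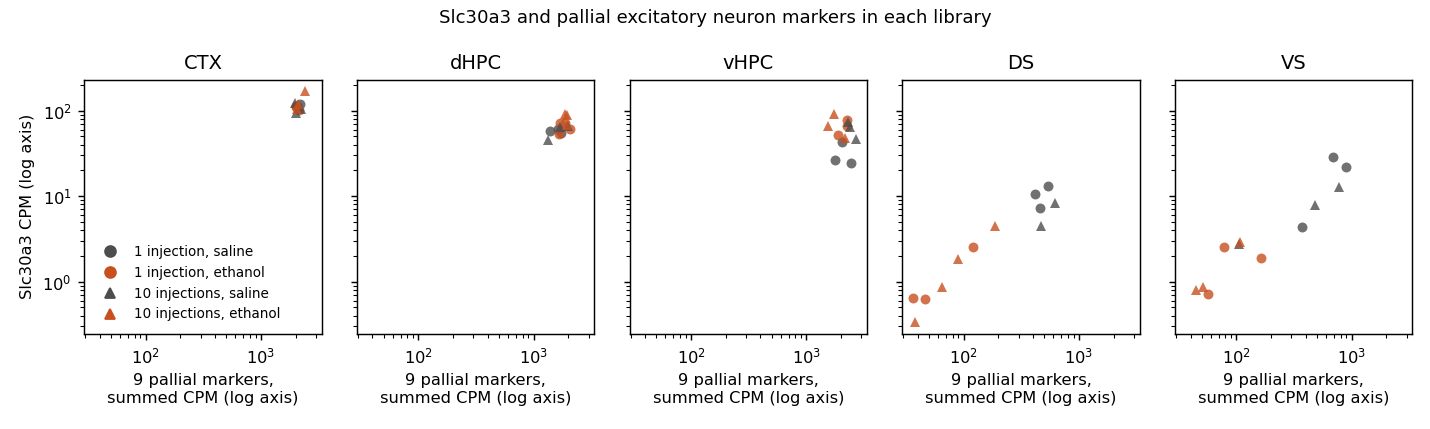
Slc30a3 against the summed level of 9 pallial excitatory neuron markers, both in CPM on log axes, 1 point a library, by region and treatment. Striatal libraries run from the lower left, where most ethanol libraries and 1 VS chronic saline library lie, to higher values of both in most saline libraries, and acute vHPC ethanol libraries lie above the saline ones at a like pallial sum.

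Other genes of zinc handling, which did not choose the set, could be tested. A list of 25 held 8 further SLC30 exporters, the 14 SLC39 importers, the epithelial metallothionein Mt4, the zinc-sensing receptor Gpr39 and the vesicular zinc transporter Tmem163, of which 20 to 23 passed the low-count filter in a comparison. By edgeR at FDR below 0.1, 2 of 21 fell and none rose in acute DS (background 3.1% lower). None passed in the other 9 ethanol comparisons, where 0% to 1.99% of all genes did. The median log2 fold change over the tested genes of the list lay between −0.05 and 0.07 in the 10 comparisons. In those 9 the unadjusted p was under 0.05 for 2 genes in acute CTX, 1 in acute dHPC, 1 in acute vHPC, 3 in acute VS, and 1, 2, 2, 0 and 3 in chronic CTX, dHPC, vHPC, DS and VS. DESeq2 called 3 in acute DS, 1 in chronic vHPC and 0 elsewhere, against 8.14% and 1.17% of all genes in acute DS and chronic vHPC.

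The importer gene Slc39a10, whose product brings zinc into the cell, fell in acute DS, with a log2 fold change of −0.44 ± 0.07 (adjusted p = 0.0042, edgeR). The saline mice stood at 172, 155 and 176 CPM and the ethanol mice at 131, 124 and 116 CPM, with no overlap. In acute VS it was −0.43 ± 0.11 (adjusted p = 0.396), which did not pass. Tmem163 fell in acute DS, with a log2 fold change of −0.77 ± 0.20 (adjusted p = 0.0501, edgeR), from 11.7, 10.6 and 14.96 CPM to 5.39, 8.25 and 7.95 CPM. The count of other zinc genes called in acute DS, 2 in the reported fit, ranged from 1 to 3 over the alternatives. In the same DS libraries the pallial marker sum differed as given above, and its part in these 2 results was not tested.

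Copper handling genes and targets of NRF2, the regulator of the oxidative stress response, were counted as neighbours of the metallothioneins. None of 9 copper genes, among them the importer Slc31a1 and the pump Atp7a, passed FDR below 0.1 in edgeR in any ethanol comparison. Of all genes, 5.15% passed in acute DS, 1.99% in acute CTX and at most 0.0555% in each of the others, so this count lies near the background. At most 2 of the 9 copper genes had an unadjusted p under 0.05. Of 7 NRF2 targets only Slc7a11, the cystine importer, passed, with a log2 fold change of −0.38 ± 0.07 in acute CTX (adjusted p = 0.0356, edgeR), against a background of 1.17% lower. At most 2 of the 7 had an unadjusted p under 0.05 in any of the 10 comparisons.

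The comparison of 10 with 1 saline injections asked whether repeated handling and injection alone moved the genes. It uses the same saline libraries as the ethanol comparisons that chose the 6 genes, so its p-values for them describe these libraries and are no independent support. None of the 6 genes passed FDR below 0.1 in any region by edgeR, where 0.00772% of all genes passed in CTX, 0.00382% in dHPC, 3.17% in DS and 0% in vHPC and VS. The unadjusted p was under 0.05 for 2 genes in CTX, 1 in vHPC and 0 in the other regions, and DESeq2 called 2 in CTX, 1 in vHPC and 0 elsewhere, where its share of all genes was 1.03% (CTX), 0.871% (dHPC), 2.43% (vHPC), 4.97% (DS) and 0.149% (VS). In CTX Mt1 averaged 109 CPM after 1 and 87.9 CPM after 10 saline injections, −0.31 ± 0.06 (adjusted p = 0.236, edgeR). Mt2 was −0.26 ± 0.06 in the same libraries (adjusted p = 0.423). In vHPC Slc30a3 averaged 31.3 and 60.95 CPM, 0.95 ± 0.23 (adjusted p = 0.251), and the dentate granule sum was 246.5 ± 106 and 462 ± 131 CPM. Among the 14 glucocorticoid response genes 0 had a positive fold change in CTX, with a median of −0.39, and Cdkn1a passed at −0.81 (adjusted p = 0.0886, edgeR). In DS 2 of 21 other zinc genes passed, where 1.89% of all genes passed as higher and 1.28% as lower. Slc39a4, an importer best known from intestine, rose by 3.47 ± 0.55 (adjusted p = 0.0223, edgeR), from 0.80, 0.29 and 0.86 CPM to 3.76 and 10.6 CPM, and Slc39a10 fell by 0.50 on the log2 scale (SE 0.10, adjusted p = 0.042, edgeR). The 8 choroid plexus markers summed to 159.6 ± 137 CPM in the acute and 4551 ± 3745 CPM in the chronic saline libraries of DS (n = 3 and 2), and their part in these results was not tested.

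Regions of saline mice were compared within a batch, with the number of injections in the model. The 6 genes were not chosen by a difference between regions, but these are again the saline libraries of the ethanol comparisons. In dHPC against CTX all 6 genes passed FDR below 0.1 in edgeR, where 55.3% of all genes did, 28.9% as higher and 26.4% as lower in dHPC. Mt2 was higher in dHPC by a log2 fold change of 0.89 ± 0.09 (97.1 ± 13.6 against 50.7 ± 5.27 CPM, SD over 6 mice, adjusted p = 8.08e-07, edgeR). Mt1 was higher by 0.61 ± 0.09 (154.9 ± 21.2 against 98.5 ± 12.0 CPM, adjusted p = 7.16e-05) and Mt3 by 0.51 ± 0.08 (250.6 ± 28.8 against 169.7 ± 16.2 CPM, adjusted p = 6.87e-05). The metallothioneins thus all stood higher in dHPC, and Slc30a3 stood lower, at 58.2 ± 7.94 against 109.9 ± 10.6 CPM (−0.97 ± 0.09, adjusted p = 5.26e-07). Mtf1 was higher by 0.21 ± 0.04 (adjusted p = 0.00131) and Slc30a1 by 0.12 ± 0.04 (adjusted p = 0.0413), in libraries where the reads of Mt2, Mtf1 and Slc30a1 cannot be told apart from those of the overlapping genes named above. With the mouse as a block, Slc30a1 no longer passed, at 0.10 (adjusted p = 0.181).

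In vHPC against VS 3 of the 6 genes passed in edgeR, against 39.1% of all genes, 18.9% higher and 20.2% lower in vHPC. Mt3 was higher in vHPC by 0.51 ± 0.06 (213.8 against 155.8 CPM, adjusted p = 3.15e-05), Mt2 by 0.41 ± 0.10 (88.7 against 69.1 CPM, adjusted p = 0.00538) and Slc30a3 by 1.88 ± 0.49 (46.1 ± 19.5 against 13.0 ± 10.3 CPM, adjusted p = 0.00822). Mt1 was 0.15 ± 0.08 higher (adjusted p = 0.206), and Mtf1 and Slc30a1 did not pass either. In DS against VS none of the 6 passed, by edgeR or DESeq2, while 9.88% of all genes did in edgeR, 5.54% higher and 4.34% lower in DS, and 16.1% in DESeq2. Mt2 alone had an unadjusted p under 0.05 there, at 0.16 ± 0.08 (adjusted p = 0.229).

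Among the other zinc genes, 17 of 23 passed in dHPC against CTX by edgeR, where 55.3% of all genes did, 11 higher and 6 lower in dHPC. The mouse was not in these regional fits, although libraries of different regions came in part from the same mice. Values with the mouse as a block are not given for these genes. The zinc receptor Gpr39 was higher by 1.16 ± 0.11 (adjusted p = 3.95e-07) and the importer Slc39a6 by 0.84 ± 0.09 (adjusted p = 3.22e-06). Slc39a10 was lower, at a log2 fold change of −1.35 ± 0.06 (adjusted p = 2.16e-10), as was the exporter Slc30a4, at −0.69 ± 0.05 (adjusted p = 1.64e-08). Of the 22 tested in vHPC against VS, 5 were higher and 4 lower in vHPC, a share near the 39.1% of all genes, with Slc39a6 again higher, by 0.81 ± 0.16 (adjusted p = 0.00127), and the exporter Slc30a10 lower, at −0.38 ± 0.10 (adjusted p = 0.00695). In DS against VS 2 of 22 passed, near the 9.88% of all genes. Slc30a4 was higher in DS by 0.30 ± 0.06 (adjusted p = 0.0166) and Slc39a2 was lower, at −0.63 ± 0.20 (adjusted p = 0.0817).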

How the data were processed

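RNA from brain region cores was sequenced as paired reads, and per the labels and the methods of the study the authors made gene counts with featureCounts 2.0.6, from STAR 2.7.10a alignments to GRCm39 of reads trimmed by Cutadapt 5.0. All 62 libraries were counted as reverse-stranded, also the CTX and dHPC libraries of a kit without strand, and read pairs that overlapped several genes were counted for each. The deposited values were whole-number counts, and no column was left unmapped. The deposited transcript counts gave the isoform 201 counts behind the levels per kilobase, and gene counts gave all other values. The 6 genes and all lists were chosen with earlier results of these data known. Named genes were the 6, the genes of the lists that passed the threshold or had the largest change, and the 5 genes most like each of the 6. Further genes were named after their values were seen, as examples of a list (Slc31a1, Atp7a, Mt4), as its most abundant marker (Slc1a2, Slc17a7, Cux2, Prox1) or for overlapping 1 of the 6 (Gm45774, 1700034H15Rik, 1110065P20Rik). Each comparison was fitted on its own libraries with edgeR 4.0.16 (TMM, prior count 0.125, R 4.3.3) by the quasi-likelihood F test, over genes that reached 5 counts in 2 or more libraries of a group, with Benjamini-Hochberg adjustment over all genes tested and FDR below 0.1. SE is the log2 fold change over the square root of F. Alternatives were DESeq2 1.42.0, its size factors, no filter, at least 10 counts in every library, all groups of a region in 1 fit, the replicate number as a block, and leaving out each library. Region comparisons had the paradigm as a covariate. In the region comparisons same-numbered libraries of a group came from the same mouse, per the labels. The fits were also run on simulated data, for which no values are given here. Mice were the replicates. Lengths were those of isoform 201, and sequences were read from GRCm39.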

Additional observations from a re-analysis of the deposited data

Results flagged for a closer look

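The ethanol differences of Slc30a3 after 1 injection had opposite signs between regions, with every ethanol library above every saline library in vHPC (log2 fold change 1.06) and every ethanol library below every saline library in DS (−3.10) and VS (−3.35). The difference between regions was not tested, because these contrasts chose the gene, and its pallial and dentate granule marker values stand beside the levels above.

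Mtf1 in DS after 10 ethanol injections had 1 mouse apart from the others, at 40.3 CPM against 33.6 to 34.4 CPM in the other 3, with a gap of 0.87 of the range of the group. About 1 group in 20 shows such a gap by chance.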

How the results depend on the processing

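Depth limits the striatal Slc30a3 values, since 1 ethanol library held only 4 counts. DS chronic saline rests on 2 mice. Under the alternatives that kept all libraries, each of the 318 ethanol log2 fold changes of the 6 genes moved by less than the spread between replicates. With 1 library left out 363 did so and 3 moved further, Slc30a3 in acute DS from −3.10 to −3.98 (without ethanol mouse 4) and Mt1 in chronic DS from 0.27 to 0.42 or 0.12 (without saline mouse 3 or 6, the lone saline mouse being assumed to vary like the ethanol mice). Of the 60 ethanol log2 fold changes, 17 took the other sign under at least 1 alternative, each of them 0.18 or less in size in the reported fit, among them Mt1 and Mt2 in chronic vHPC (−0.039 and −0.00027 without ethanol mouse 6), Slc30a3 there (−0.090) and Mt3 in chronic dHPC (−0.024 without ethanol mouse 6). With DS chronic saline mouse 2 kept, the chronic DS values of Mtf1, Slc30a1 and Slc30a3 were 0.18, 0.05 and −2.32 against 0.13, 0.07 and −1.79. The count of all genes called was less stable. Over all alternatives it ran from 0 to 1488 in acute CTX (515 reported), 0 to 281 in acute dHPC (11), 0 to 578 in acute vHPC (0), 283 to 1798 in acute DS (1056) and 0 to 536 in acute VS (8), and in the chronic sets from 0 to 156, 223, 790, 475 and 615 in CTX, dHPC, vHPC, DS and VS (0, 0, 11, 0 and 0 reported). In acute CTX the calls of Mt1 and Mt2 were both lost with all groups in 1 fit and without saline mouse 4, ethanol mouse 4 or ethanol mouse 5, and that of Mt1 alone with DESeq2's size factors, with the replicate block and without saline mouse 2 or 6. In acute DS the call of Mt2 was lost with all groups in 1 fit and without saline mouse 6, ethanol mouse 4 or ethanol mouse 5, and that of Slc30a3 with at least 10 counts in every library, a filter that removes it there. Calls were also gained: Mt1 and Mt2 (acute dHPC), Mt1, Mt2 and Slc30a3 (acute vHPC), Mt1 (acute DS), Mt2 and Slc30a3 (acute VS) and Slc30a3 (chronic DS and VS) without the filter, and Mt2 in acute dHPC with the replicate block. With 1 library left out they were Mt1 and Mt2 in acute vHPC (saline mouse 6), Mt1 in acute DS (ethanol mouse 3), Slc30a3 (saline mouse 2) or Mt1, Mt2 and Slc30a3 (ethanol mouse 2) in acute VS, and Slc30a3 in chronic VS (saline mouse 5).

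Among other zinc genes, the count called without the low-count filter was 1 in acute CTX, 1 in acute VS, 2 in chronic vHPC and 1 in chronic VS, against 0 in each with it. The replicate block gave 2 in acute CTX, DESeq2 gave 1 in chronic vHPC, and all groups in 1 fit gave 1 in acute DS against 2. With 1 library left out the count in acute DS ranged from 1 to 2 (1 without saline mouse 2, ethanol mouse 3 or ethanol mouse 5) and in acute VS from 0 to 1 (1 without ethanol mouse 2). For 10 against 1 saline injections, the count of the 6 genes called in CTX was 2 by DESeq2, 1 without the filter and 0 to 1 with 1 library left out (Mt1, −0.32, without chronic saline mouse 3), and in vHPC it was 1 by DESeq2 and 1 without the filter (Slc30a3). In DS against VS the count without the filter was 1 (Slc30a3, −0.53). The causes were not tested.

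Differences near 0 in saline mice changed sign too. With the replicate block, for 10 against 1 saline injections, dHPC Slc30a3 was −0.032 (0.033 without it), vHPC Mtf1 0.044 (−0.019) and vHPC Slc30a1 0.077 (−0.040). Mtf1 in DS against VS was −0.029 with DS chronic saline mouse 2 and 0.017 without it. With 1 library left out, the 10 against 1 values ranged from −0.16 to 0.038 (CTX Slc30a3), −0.081 to 0.18 (dHPC Mt2), −0.026 to 0.17 (dHPC Mt3), −0.081 to 0.00058 (dHPC Mtf1), −0.062 to 0.19 (dHPC Slc30a3), −0.055 to 0.14 (vHPC Mt1), −0.17 to 0.12 (vHPC Mt2), −0.12 to 0.0016 (vHPC Mt3), −0.13 to 0.040 (vHPC Mtf1), −0.13 to 0.043 (vHPC Slc30a1), −0.19 to 0.014 (VS Mt1) and −0.050 to 0.080 (VS Mtf1). In DS against VS they ranged from −0.047 to 0.061 (Mtf1), −0.082 to 0.0080 (Mt1), −0.044 to 0.016 (Mt3) and −0.028 to 0.13 (Slc30a1).

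Same-numbered libraries of ethanol and saline groups did not deviate together (r of −0.22 to 0.10), so those numbers do not pair the mice. Ethanol and saline mice of the same number are different animals, as are acute and chronic ones, so the replicate block was no paired analysis. It could not be fitted where the groups share fewer than 2 numbers. Those were vHPC, DS and VS with ethanol, dHPC chronic, and CTX, DS and VS for 10 against 1 saline injections. With the mouse as a block, dHPC against CTX kept 5 of 6 calls, Slc30a1 being lost at 0.10 (adjusted p = 0.181, edgeR), and no other regional call of the 6 genes changed.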
